A study of Mus musculus with 6 samples.

Results

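The levels of 10 genes were followed across 6 mouse osteosarcomas. They encode the receptor tyrosine kinases Met, Kdr, Pdgfra, Pdgfrb, Igf1r, Fgfr1, Fgfr2, Fgfr3 and Axl, and the Met ligand Hgf. The members were chosen by name, as receptors of mesenchymal tumors together with *Met*, its ligand and *Kdr*, whose receptors CD44 can assist. All 10 were found among the 39179 genes of the count table, each under 1 Ensembl identifier. The tumors came from 3 *Cd44*+/+; *Nf2*Δ2/+ mice (No244, No316 and No368) and 3 *Cd44*-/-; *Nf2*Δ2/+ mice (No203, No279 and No364), so every animal carried 1 mutant *Nf2* allele. All mice had the mixed C57BL/6 x 129/Sv x FVB background, and no treatment, age or sex is given in the sources used here. The tissue is named as osteosarcoma in the labels and as primary tumor tissue in the study's methods, while the extraction note of the labels speaks of cell lines. The labels give 1 library per animal number. The libraries were of stranded mRNA, and reads were counted per gene.

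The receptors in this group are single-pass membrane proteins with a kinase in their cytoplasmic part. In most of them a ligand brings receptor chains together and the kinases phosphorylate each other. Adaptors such as Grb2 and Gab1 then carry the signal to the Ras/MAPK and PI3K pathways. CD44 is a hyaluronan receptor whose splice variants can present HGF to Met and VEGF to Kdr (VEGFR-2). PDGF, FGF and IGF receptors are known for growth signals in bone-forming and other mesenchymal cells.

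Total counts lay between 18076388 and 26954142 per library. Levels are given as CPM, the counts scaled to a library of 1000000 reads after TMM normalization, and a count of 3, the smallest number taken as detectable, was worth between 0.0990 and 0.252 CPM. The libraries No316 and No368 agreed within sampling noise for 87.2% of genes, against 15.8% to 23.9% in the other 14 pairs, so their mean was counted as 1 sample in each mean ± SD. They are labelled as separate animals, and whether they come from 1 tumor or library cannot be told from the sources used here. Mitochondrial genes took 55.2% of the counts of No244 and from 5.94% to 12.5% of the others. The targeted gene *Cd44* was at 137.3, 243.6 and 240.3 CPM (No244, No316, No368) against 19.2, 15.7 and 61.8 CPM (No203, No279, No364). Which exons of *Cd44* were removed is not given in the sources used here, so reads outside the deletion cannot be set apart.

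Some tumors stood apart by markers of other tissues. These markers are given here because several receptors had their highest or lowest level in the same tumors, and a link between them was not tested. The 14 hepatocyte markers summed to 165230 CPM in No364 and to between 93.9 and 225.1 CPM elsewhere. *Alb*, the gene of serum albumin, alone reached 60281 CPM in No364, and none of the 14 genes was at 0 in any tumor. The 8 epithelial markers, led by the keratin gene *Krt8*, summed to 2115 CPM in the same tumor and to at most 45.4 CPM in the others. In No279 the 7 fibroblast markers summed to 19746 CPM, against 618.1 to 1583 CPM elsewhere, with the collagen gene *Col3a1* at 16394 CPM. No279 was the highest tumor for 5 of the 7. *Fap* of this list went the other way, at 81.8 CPM in No279 against 255.5 to 891.1 CPM in *Cd44*+/+ tumors. The 6 skeletal muscle markers summed to 17168 CPM in No244 and to at most 547.2 CPM in the others. The 10 osteoblast markers, which define the labelled tissue, were all found in every tumor, but bone-specific ones were low in both No279 and No364. *Ibsp*, bone sialoprotein, was at 3.27 CPM in No279 and 2.25 CPM in No364 against 640.1 to 4820 CPM in the other tumors, and *Bglap*, osteocalcin, at 4.79 and 6.80 CPM against 269.2 to 3481 CPM. *Alpl*, *Dmp1* and the transcription factor gene *Sp7* were low in the same 2 tumors, with *Sp7* at 3.96 and 0.314 CPM against 192.0 to 333.2 CPM. The sum of the list was 13559 CPM in No279 and 3037 CPM in No364 against 17214 to 39286 CPM elsewhere. It largely hid the low genes in No279, since *Col1a1* alone, which fibroblasts also make, gave 11990 CPM there. In No364, *Spp1* gave 2233 CPM of the sum. These genes were singled out after their values were seen. The 10 endothelial markers summed to 137.7 CPM in No364 and to between 301.4 and 441.3 CPM in the others. The sums were 173.4 to 734.4 CPM for Kupffer cells and macrophages, 125.7 to 736.3 CPM for hepatic stellate cells and 138.9 to 973.4 CPM for pericytes and smooth muscle. Single genes differed from these sums, and were named after their values were seen. *Cd5l* and *Clec4f* of the macrophage list were at 56.7 and 42.9 CPM in No364 and at most 2.62 and 3.49 CPM elsewhere. *Adgre1* was at 12.8 CPM there and highest in No368 (56.2 CPM). Of the stellate list, *Colec11* was at 15.9 CPM in No364 and at most 0.672 CPM elsewhere, while *Ecm1* was lowest in No364 (42.1 CPM). Chondrocyte markers summed to 27.7 CPM in No364, 174.6 CPM in No279 and 787.1 to 1826 CPM in the others. Most of the sum in those others was *Col11a2*, which was at 2.91 CPM in No279 and 1.47 CPM in No364. *Acan* of the same list went the other way, at 152.9 CPM in No279, most of the sum there. It was at 10.1 and 10.3 CPM in No203 and No364, and at 0.168 to 1.36 CPM in *Cd44*+/+ tumors. In bulk tissue, fewer cells of a type and less RNA per cell cannot be told apart.

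**Figure D1:**
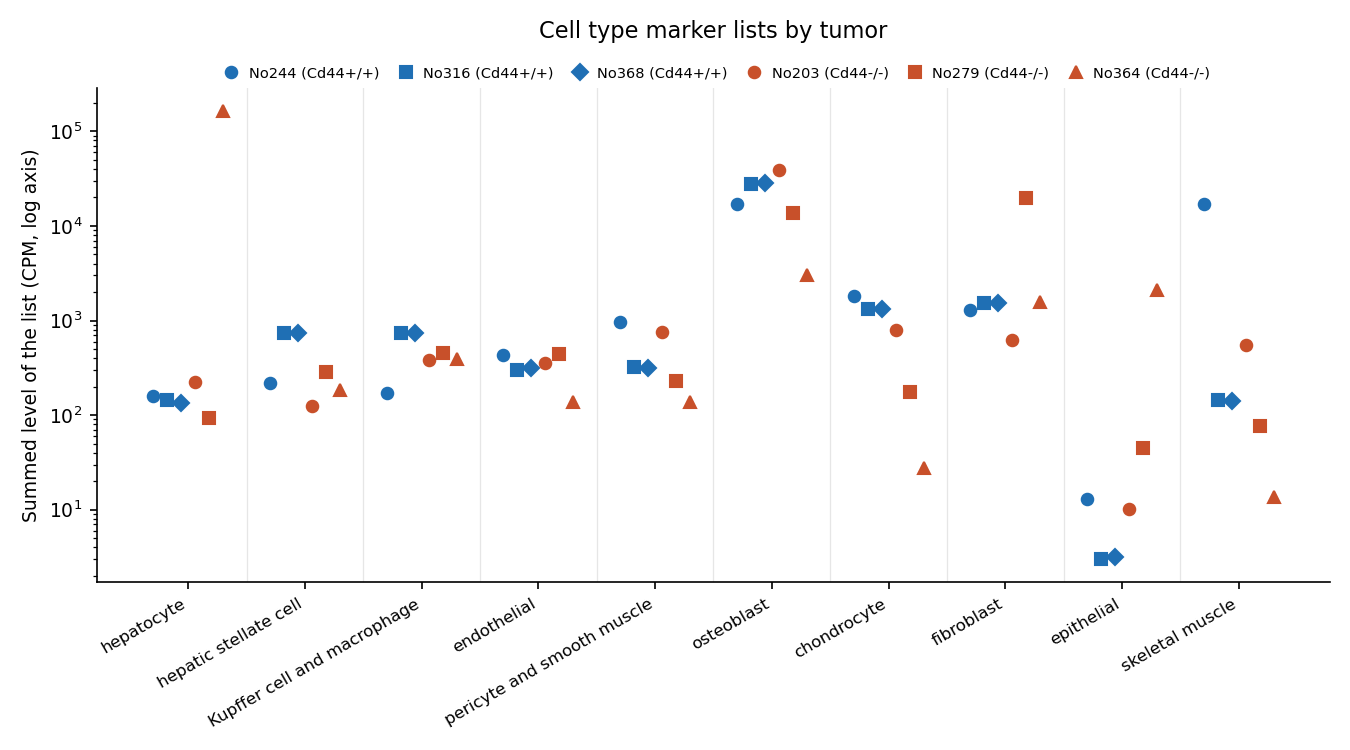
Summed level of each cell type marker list in each tumor, in TMM-scaled CPM on a log axis, with *Cd44*+/+ tumors in blue and *Cd44*-/- tumors in orange. No364 lies far above the other tumors for hepatocyte (165230 CPM) and epithelial (2115 CPM) markers, No279 for fibroblast markers (19746 CPM) and No244 for skeletal muscle markers (17168 CPM).

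The first question was whether the loss of *Cd44* went with another level of these receptors. *Met* and its ligand *Hgf* had the highest fold changes in *Cd44*-/- tumors, and *Fgfr3* and *Kdr* the lowest. No member passed the test of edgeR after Benjamini-Hochberg adjustment over all 16839 genes tested, where 0 genes (0%) passed. The members' adjusted p-values in edgeR ran from 0.452 for *Met* and *Kdr* to 0.908 for *Axl*. All 10 members had passed the low-count filter. At an unadjusted p under 0.05, *Met* and *Hgf* were higher and *Kdr* lower, 3 of 10 members where 10.7% of all genes tested reached this level, 6.44% as higher and 4.31% as lower in *Cd44*-/- tumors. The test took No316 and No368 as separate samples. With their counts summed, *Met* and *Kdr* remained and *Hgf* did not (unadjusted p = 0.0916 in edgeR), beside 4.26% of genes. Of the 3, only *Kdr* was under 0.05 without No316 and only *Met* without No368. The Wald test of DESeq2 called 2.33% of its genes and again no member, with adjusted p-values from 0.0558 for *Met* to 0.938 for *Axl*. With No316 and No368 summed it called 0.797% of genes and no member, with an adjusted p of 0.265 for *Met*. The members' median log2 fold change was -0.10, and that of all genes tested was 0.11. Values of the genotypes were fully apart for *Met*, above, and for *Kdr* and *Fgfr3*, below, while over all genes tested 9.49% lay above and 9.57% below in this way. With 3 against 3 tumors, an exact two-sided permutation test of a single gene cannot go below p = 0.1. Nothing in the labels says that the animals were litter mates or handled in batches, so the p-values measure the spread between these tumors, and those with No316 and No368 apart count a nearly identical pair as 2.

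**Figure D2:**
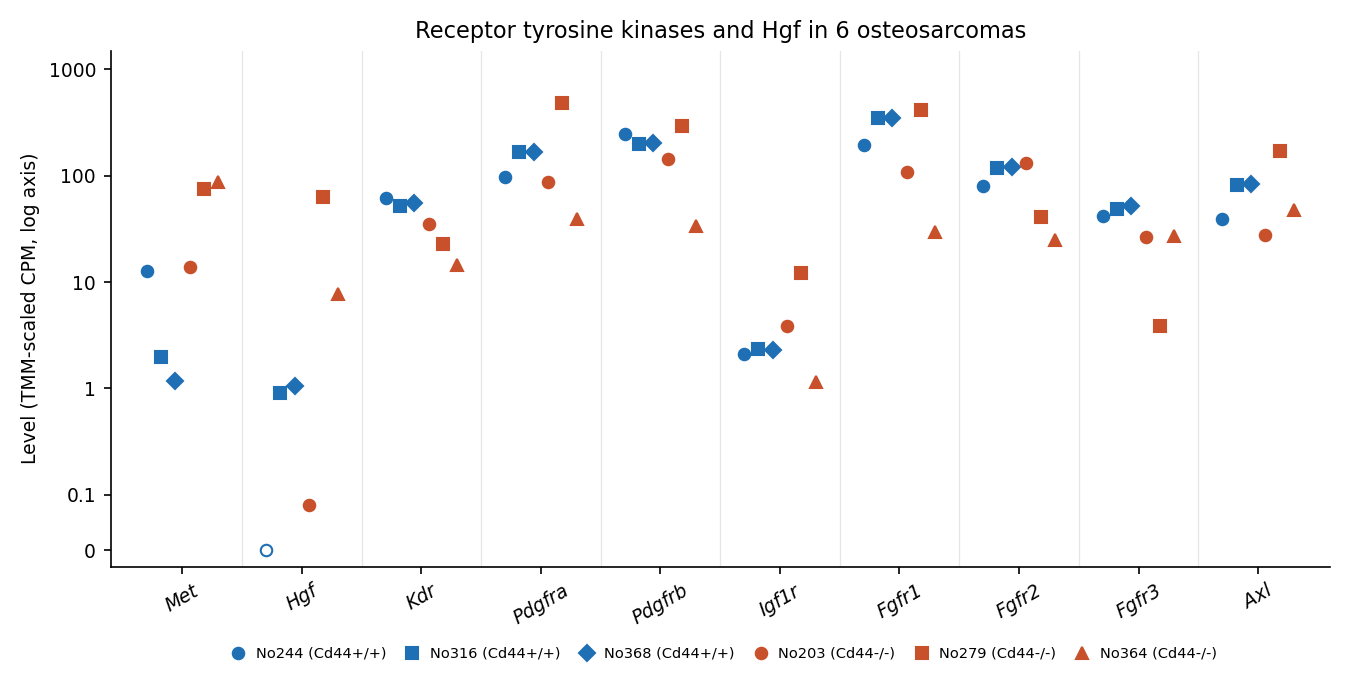
Level of each member in each tumor, in TMM-scaled CPM on a log axis, with *Cd44*+/+ tumors in blue and *Cd44*-/- tumors in orange, and an open symbol for a count of 0. *Met* reached 75.5 CPM in No279 and 88.0 CPM in No364, *Kdr* was lower in all 3 *Cd44*-/- tumors, and No279 was the highest tumor for 6 of the 10 members.

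**Figure D3:**
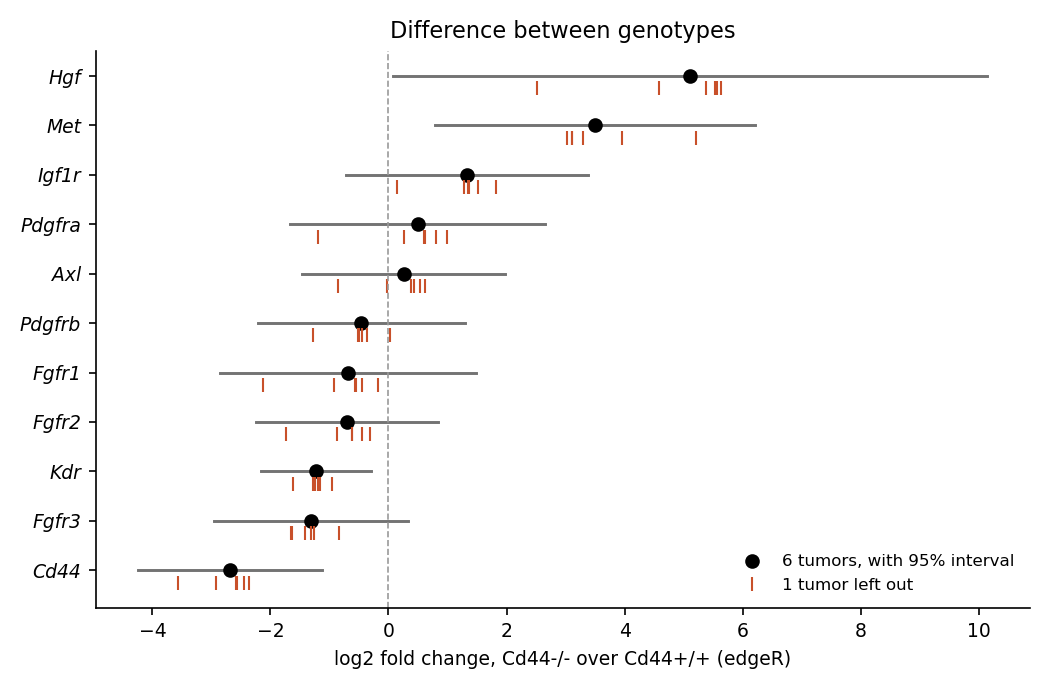
log2 fold change of each member and of *Cd44*, *Cd44*-/- over *Cd44*+/+, from edgeR, with its 95% interval (grey line) and the 6 values obtained with 1 tumor left out (orange ticks). Only the intervals of *Met*, *Hgf*, *Kdr* and *Cd44* leave out 0, and the ticks of *Pdgfra*, *Axl* and *Pdgfrb* fall on both sides of it.

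*Met* (ENSMUSG00000009376, chromosome 6 of GRCm38 from 17463800 to 17573980, plus strand) encodes the receptor for hepatocyte growth factor. Its reads numbered 151, 57 and 28 (No244, No316, No368) against 348, 2286 and 1682 (No203, No279, No364). Scaled, its level was 12.7, 1.98 and 1.18 CPM without loss of *Cd44* and 13.8, 75.5 and 88.0 CPM with it. The high values were those of No279 and No364, while No203 lay only 1.09-fold above the highest *Cd44*+/+ tumor, No244. The means were 7.13 ± 7.86 CPM (SD, n = 2) and 59.1 ± 39.7 CPM (SD, n = 3). On the log2 scale *Met* differed by 3.50 (standard error 1.14, 95% interval 0.79 to 6.21, adjusted p = 0.452 in edgeR). It stayed above 3 with each tumor left out, from 3.02 without No368 to 5.21 without No244. The 2 highest tumors for *Met* were the same tumors that led the hepatocyte and the fibroblast markers. Without No364 the log2 fold change was 3.11 and without No279 it was 3.29. Each of these fits kept the other high tumor, so neither can show the part of a marker list in the result. That part was not tested.

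CD44 is cut at the membrane and its intracellular domain can act on transcription, for which the study searched other promoters for a CD44 response element (CIRE, letters CCTGCG) and the AP-1 element TRE (TGACTCA or TGAGTCA). The same letters were searched on both strands in the 250 bases before the start site in RefSeq's promoter table (GRCm38.p6). This stretch is shorter than the one the study searched. Of the 32851 promoter windows in that table, 14.1% held the CIRE and 4.46% the TRE letters. Promoters were found for 8 of the 10 members, all but *Pdgfrb* and *Fgfr1*. Counted per gene and not per window, 3 of the 8 held such letters, and *Hgf* and *Fgfr3* had 2 windows each. They are shown here for the members that carried them, as 30 bases with the matching letters in capitals, as the table gives them for the gene's strand. All 19536 windows of the table whose bases after the start site were found in a GENCODE transcript of the gene read in the direction of transcription, those of *Met* and *Kdr* among them, while that of *Igf1r* could not be matched. The match in *Met* begins 54 bases before the start site that the table uses and lies within the gene in both annotations, since RefSeq begins *Met* at 17463349 and GENCODE at 17463800. The match in *Kdr* begins 78 bases before the table's start site, outside the gene in GENCODE and inside it in RefSeq, which draws it to 75979072. Those in *Igf1r* begin 202 and 123 bases before the start. The letters in *Kdr* are those of the CIRE on the opposite strand.
Met, TRE, chr6:17463892-17463921, plus strand: tgttgcccggcTGAGTCAcgggccgggcag
Kdr, CIRE, chr5:75978516-75978545, minus strand: ggcgtggccggaCGCAGGgagtccccaccc
Igf1r, CIRE, chr7:67952043-67952072, plus strand: acagggaagctgCCTGCGagcctgtcccgg
Igf1r, CIRE, chr7:67952122-67952151, plus strand: cctctccccgtgCCTGCGagagctccacgg
The windows of *Hgf*, *Pdgfra*, *Fgfr2*, *Fgfr3* and *Axl* held neither set of letters. The 3 genes with matches had log2 fold changes of both signs, 3.50 for *Met*, -1.23 for *Kdr* and 1.34 for *Igf1r*.

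*Hgf* (ENSMUSG00000028864, chromosome 5, 16553495 to 16620152, plus strand) encodes the ligand of Met, which is made by mesenchymal cells. Its reads numbered 0, 26 and 25 (No244, No316, No368) against 2, 1907 and 147 (No203, No279, No364). Scaled, its level was 0, 0.904 and 1.05 CPM without loss of *Cd44* and 0.0793, 63.0 and 7.69 CPM with it. No279 stood far above the rest and No364 came next, while No203 lay among the *Cd44*+/+ tumors, so the genotypes overlapped. The count of 0 in No244 allows a level of up to 0.252 CPM, by counting error only. The means were 0.488 ± 0.691 CPM (SD, n = 2) and 23.6 ± 34.3 CPM (SD, n = 3). On the log2 scale *Hgf* differed by 5.11 (standard error 2.11, 95% interval 0.08 to 10.15, adjusted p = 0.460 in edgeR). It was 2.52 without No279, the tumor with the highest sum of fibroblast markers, and 5.53 without No364. The annotation places an exon of *Gm43489* over an exon of *Hgf* on the same strand, so its counts are uncertain to that extent.

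Around this ligand and receptor, 9 of 11 listed genes were tested and 0 were called by edgeR or DESeq2. Their median log2 fold change was 0.66. HGF is secreted as an inactive chain, and the serine protease Hpn can activate it. *Hpn* had the highest log2 fold change of the list, 5.30 (standard error 2.32, adjusted p = 0.462 in edgeR), with 263.0 CPM in No364 and between 0.528 and 4.45 CPM in all other tumors. Without No364 it was -1.22. The lowest was that of *Gab1*, the docking protein that binds active Met, at -0.45 (standard error 0.41), with levels from 11.1 to 29.6 CPM. *Spint2*, an inhibitor of these proteases, was the only gene of the list whose genotypes were apart, at 0.452 to 7.56 CPM in *Cd44*+/+ and 8.72 to 154.4 CPM in *Cd44*-/- tumors, and was named after its values were seen. Over all genes tested, 9.49% lay above in this way.

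*Kdr* (ENSMUSG00000062960, chromosome 5, 75932827 to 75978458, minus strand) encodes VEGFR-2, the main VEGF receptor of endothelial cells. It was at 61.7, 52.2 and 55.5 CPM (No244, No316, No368) against 34.9, 22.9 and 14.6 CPM (No203, No279, No364). All 3 *Cd44*-/- tumors lay below all *Cd44*+/+ tumors, and the highest *Cd44*-/- tumor had 0.668 of the lowest *Cd44*+/+ value. The means were 57.8 ± 5.54 CPM (SD, n = 2) and 24.1 ± 10.2 CPM (SD, n = 3), a difference larger than either SD. The log2 fold change was -1.23 (standard error 0.39, 95% interval -2.16 to -0.29, adjusted p = 0.452 in edgeR). It lay between -1.62 without No203 and -0.96 without No364. With library size alone as the scaling, *Met* was the only member whose genotypes were still apart, and *Kdr* and *Fgfr3* overlapped, whereas TMM factors taken without mitochondrial genes kept all 3 apart. Endothelial markers summed to 435.2, 301.4 and 314.4 CPM (No244, No316, No368) against 357.6, 441.3 and 137.7 CPM (No203, No279, No364). No364 was the lowest tumor for both, and No279 had the highest sum beside a low *Kdr*. That sum leaned on *Cdh5*, at 159.0 CPM in No279 and 24.9 to 70.4 CPM elsewhere, and No279 was the highest tumor for 2 of the 10 markers. What part endothelial cells have in the *Kdr* values was not tested.

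None of the 9 other VEGF ligands and receptors listed was called by edgeR or DESeq2, and their median log2 fold change was -0.28. *Vegfa*, the chief ligand of Kdr, was at 76.7, 193.9 and 205.6 CPM in *Cd44*+/+ and at 78.7, 98.3 and 100.1 CPM in *Cd44*-/- tumors, with a log2 fold change of -0.78 (standard error 0.47). The values of the genotypes overlapped because No244 was the lowest tumor of all. *Pgf*, placental growth factor, which binds Flt1 and not Kdr, had the lowest value, -2.32 (standard error 1.12, adjusted p = 0.488 in edgeR), from 206.3, 84.8 and 86.6 CPM to 54.8, 19.2 and 1.47 CPM. The highest was *Vegfd* at 2.14 (standard error 1.44), which rested on 35.4 CPM in No279 and was -0.57 without that tumor. Vegfd is a ligand of Flt4, the receptor of lymphatic endothelium. *Flt1*, named after its values were seen, was at 69.2, 61.7 and 64.0 CPM (No244, No316, No368) against 38.4, 58.7 and 10.9 CPM (No203, No279, No364). Its genotypes were apart, with a log2 fold change of -0.85 (standard error 0.59).

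*Pdgfra* and *Pdgfrb* encode the receptor chains for PDGF, which are typical of mesenchymal cells and pericytes. *Pdgfra* (ENSMUSG00000029231, chromosome 5, 75152292 to 75198215, plus strand) was at 96.7, 167.0 and 168.6 CPM (No244, No316, No368) against 86.7, 482.2 and 39.4 CPM (No203, No279, No364). *Pdgfrb* (ENSMUSG00000024620, chromosome 18, 61045150 to 61085061, plus strand) was at 248.3, 200.1 and 202.9 CPM in *Cd44*+/+ and at 145.1, 294.9 and 33.4 CPM in *Cd44*-/- tumors. For both genes the *Cd44*-/- tumors enclosed the *Cd44*+/+ tumors, with No279 highest and No364 lowest. The log2 fold changes were 0.49 for *Pdgfra* (standard error 0.91, 95% interval -1.67 to 2.66) and -0.46 for *Pdgfrb* (standard error 0.74, 95% interval -2.22 to 1.30). These intervals still allow differences of several fold in either direction. Each sign hung on 1 tumor, since *Pdgfra* was at -1.19 without No279 and *Pdgfrb* at 0.03 without No364. Per kilobase of exon, the level of *Pdgfra* was below that of *Pdgfrb* in every tumor, with ratios of 0.213, 0.456 and 0.454 in *Cd44*+/+ and 0.327, 0.894 and 0.645 in *Cd44*-/- tumors. Annotated exons of *Gm42802*, *Gm42803* and *Mir7025* overlap those of *Pdgfra*, and no gene overlaps *Pdgfrb*.

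**Figure D4:**
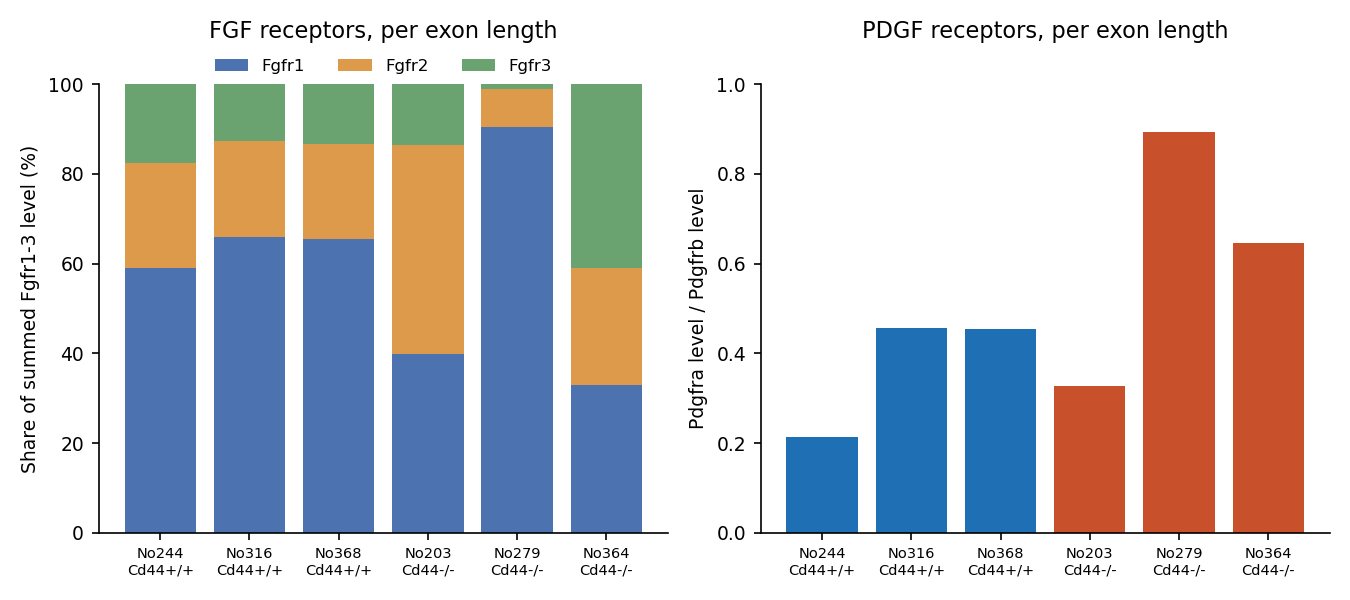
Left, share of each FGF receptor in the summed level of *Fgfr1*, *Fgfr2* and *Fgfr3* per exon length, in percent for each tumor. Right, level of *Pdgfra* over that of *Pdgfrb* per exon length, with *Cd44*+/+ tumors in blue and *Cd44*-/- tumors in orange. The *Fgfr1* share was 59.0% to 65.9% in *Cd44*+/+ tumors and 40.0%, 90.5% and 32.9% (No203, No279, No364) in the others, and the *Pdgfra* to *Pdgfrb* ratio reached 0.894 in No279.

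The 4 PDGF ligand genes had a median log2 fold change of -1.47, and 0 were called by edgeR. DESeq2 called *Pdgfd* (adjusted p = 0.00383), and no longer did with No316 and No368 summed (adjusted p = 0.117). *Pdgfd*, a ligand of Pdgfrb, was at 21.6, 31.2 and 31.9 CPM (No244, No316, No368) against 7.81, 2.67 and 3.04 CPM (No203, No279, No364). All *Cd44*-/- tumors were below all *Cd44*+/+ tumors, with a log2 fold change of -2.65 (standard error 0.55, adjusted p = 0.452 in edgeR) that lay between -3.34 and -2.38 with each tumor left out. *Pdgfa*, the ligand of Pdgfra, was at 121.3, 357.6 and 348.9 CPM in *Cd44*+/+ and at 149.3, 28.8 and 28.8 CPM in *Cd44*-/- tumors (log2 fold change -2.00, standard error 0.84). No203 lay above No244, so the genotypes overlapped. *Pdgfc* was at 14.5, 129.4 and 133.4 against 43.8, 57.4 and 43.9 CPM, with a log2 fold change of -0.93 (standard error 0.76). *Pdgfb*, which binds both receptor chains, was at 38.2, 14.8 and 14.5 against 55.4, 44.5 and 12.1 CPM, with the highest log2 fold change of the list, 0.73 (standard error 0.67).

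**Figure D5:**
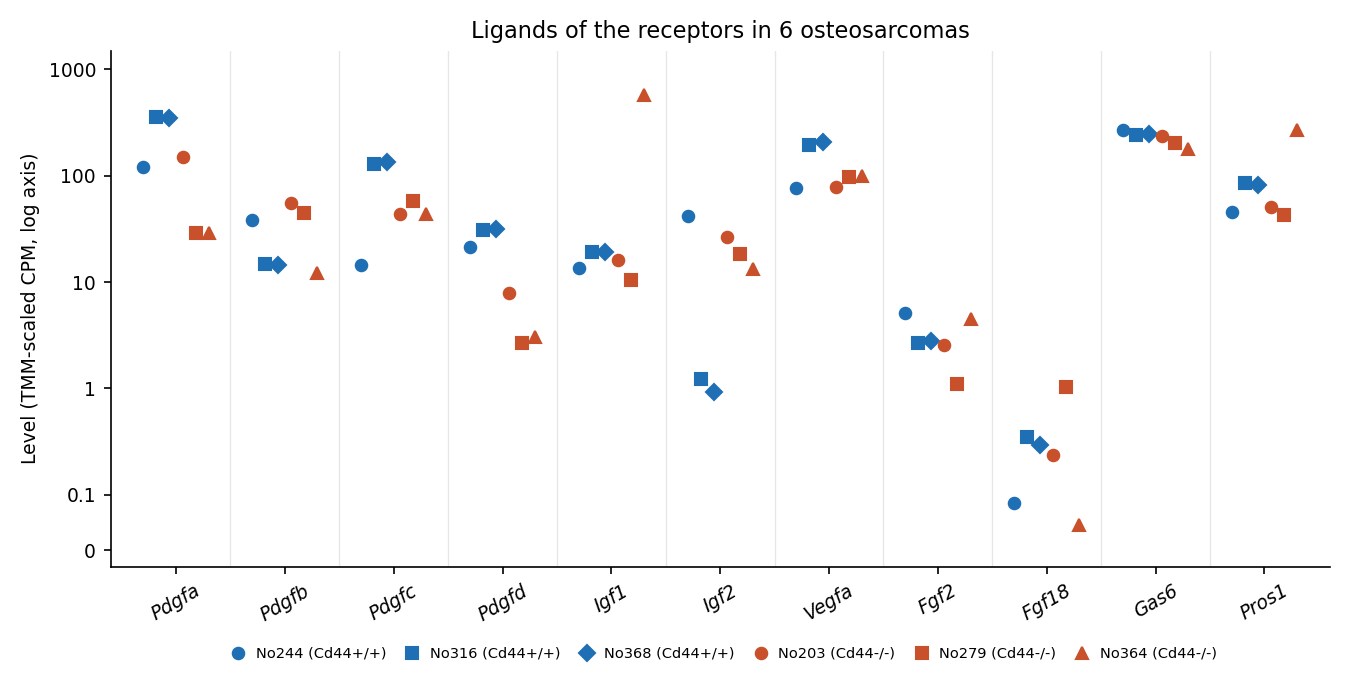
Level of the ligand genes in each tumor, in TMM-scaled CPM on a log axis, with *Cd44*+/+ tumors in blue, *Cd44*-/- tumors in orange and an open symbol for a count of 0. Of the 11 ligands plotted, all *Cd44*-/- tumors lay below all *Cd44*+/+ tumors for *Pdgfd* and *Gas6*, and *Igf1* reached 570.1 CPM in No364.

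*Igf1r* (ENSMUSG00000005533, chromosome 7, 67952827 to 68233668, plus strand) encodes the receptor for IGF1 and IGF2, growth factors of bone. It was counted between 22 and 367 times per tumor. Its levels were 2.10, 2.36 and 2.31 CPM (No244, No316, No368) against 3.85, 12.1 and 1.15 CPM (No203, No279, No364). The *Cd44*+/+ tumors, with No316 and No368 as a nearly identical pair, were close together, and the *Cd44*-/- tumors lay on both sides of them. The log2 fold change was 1.34 (standard error 0.86, 95% interval -0.72 to 3.39, adjusted p = 0.565 in edgeR). It was 0.15 without No279, the highest tumor.

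Of the other genes of the IGF axis, 13 of 14 were tested, 0 were called by edgeR, and the median log2 fold change was 1.04. DESeq2 called *Igfbp2*, *Igfbp4* and *Igfbp6*, genes of secreted proteins that bind IGFs, which were named for that call, beside 2.33% of all its genes. *Igfbp4* was at 74.5, 74.3 and 72.9 CPM in *Cd44*+/+ and at 201.7, 440.9 and 1137 CPM in *Cd44*-/- tumors, with a log2 fold change of 3.00 (standard error 0.73, adjusted p = 0.452 in edgeR and 0.00608 in DESeq2). With No316 and No368 summed, DESeq2 gave adjusted p-values of 0.101 for *Igfbp4*, 0.0837 for *Igfbp6* and 0.000828 for *Igfbp2*, which stayed called. *Igfbp2* was also apart, at 0.966 to 1.34 CPM against 5.75, 74.1 and 208.6 CPM. *Igfbp6* was not, since No203 had 2.18 CPM beside 273.0 CPM in No279 and 35.8 CPM in No364. The ligand gene *Igf1* was at 13.7, 19.3 and 19.1 CPM in *Cd44*+/+ and at 16.1, 10.4 and 570.1 CPM in *Cd44*-/- tumors. Its log2 fold change of 3.52 (standard error 1.53) was -0.38 without No364. *Igf2* was at 41.9, 1.22 and 0.924 against 26.8, 18.2 and 13.2 CPM, with a log2 fold change of 0.41 (standard error 1.37) that was 4.17 without No244. The highest value of the list belonged to *Igfbp1*, an IGF-binding protein made by the liver, with 2208 CPM in No364 and at most 1.43 CPM elsewhere, a log2 fold change of 9.93 (standard error 3.52) that was -0.20 without No364. The lowest was *Irs1*, the docking protein of Igf1r, at -0.69 (standard error 0.75). Of the 6 tumors, both *Igf1* and *Igfbp1* were high only in No364, the tumor with hepatocyte markers, and the part of those cells in these values was not tested.

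The FGF receptors are known for their part in skeletal growth, with Fgfr1 and Fgfr2 in bone-forming cells and Fgfr3 in cartilage. *Fgfr1* (ENSMUSG00000031565, chromosome 8, 25513654 to 25575718, plus strand) was at 194.4, 348.4 and 353.2 CPM (No244, No316, No368) against 107.6, 419.8 and 29.8 CPM (No203, No279, No364). The *Cd44*-/- tumors again enclosed the *Cd44*+/+ tumors. The log2 fold change of -0.69 (standard error 0.91, 95% interval -2.86 to 1.49) ran from -2.12 without No279 to -0.17 without No364. *Fgfr2* (ENSMUSG00000030849, chromosome 7, 130162451 to 133123350 in GENCODE and to 130266808 in RefSeq, minus strand) was at 80.3, 118.7 and 120.7 CPM in *Cd44*+/+ and at 130.9, 40.7 and 24.9 CPM in *Cd44*-/- tumors. No203 was the highest tumor of all, and the log2 fold change of -0.70 (standard error 0.65, 95% interval -2.24 to 0.84) was -1.74 without it. *Fgfr3* (ENSMUSG00000054252, chromosome 5, 33721674 to 33737068, plus strand) was at 42.1, 48.7 and 51.9 CPM in *Cd44*+/+ and at 26.5, 3.86 and 26.8 CPM in *Cd44*-/- tumors. All *Cd44*-/- tumors were lower, and No279 was by far the lowest. The means were 46.2 ± 5.80 CPM (SD, n = 2) and 19.1 ± 13.2 CPM (SD, n = 3), and the log2 fold change was -1.32 (standard error 0.69, 95% interval -2.96 to 0.32, adjusted p = 0.501 in edgeR), or -0.83 without No279.

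The mixture of the 3 receptors was alike in the *Cd44*+/+ tumors, where No316 and No368 are a nearly identical pair. It differed from tumor to tumor among the *Cd44*-/- tumors. Per exon length, *Fgfr1* made up 59.0%, 65.9% and 65.4% of their summed level (No244, No316, No368) against 40.0%, 90.5% and 32.9% (No203, No279, No364). Of the 3, *Fgfr2* led in No203 with 46.5% and *Fgfr3* in No364 with 40.9%, while *Fgfr3* took 1.15% in No279. No279 and No364, both low in the bone-specific genes and in *Col11a2*, thus had the highest and the lowest *Fgfr1* share. *Fgfr4* is outside these shares and did not pass the low-count filter. It was at 10.4 CPM per kilobase in No364 and at 0 to 0.142 elsewhere. In No364 it lay above *Fgfr1* (3.02), *Fgfr2* (2.41) and *Fgfr3* (3.75 CPM per kilobase). The chondrocyte marker *Acan* was at 152.9 CPM in No279 and 10.3 CPM in No364, against 0.168 to 1.36 CPM in *Cd44*+/+ tumors. What part the cells of No279 and No364 have in the mixture was not tested. Exons of *Gm16159* and *G630022F23Rik* on the opposite strand overlap those of *Fgfr1* and *Fgfr3*, and *Ctbp2* shares exon bases with *Fgfr2* in the annotation.

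Most FGF ligands were at the edge of detection, and 6 of 14 genes of the FGF axis were tested, with 0 called by edgeR and a median log2 fold change of 1.10. *Fgf2*, a ligand of all 3 receptors, was at 5.13, 2.68 and 2.77 CPM in *Cd44*+/+ and at 2.58, 1.09 and 4.45 CPM in *Cd44*-/- tumors, the lowest log2 fold change of the list (-0.38, standard error 0.69). *Fgf18*, a ligand in bone and cartilage, did not pass the low-count filter, with levels from 0.0523 to 1.02 CPM. The highest was *Fgf7*, a mesenchymal ligand of an epithelial form of Fgfr2, at 2.69, 1.15 and 1.39 CPM against 9.79, 31.6 and 3.04 CPM. Its genotypes were apart, with a log2 fold change of 3.10 (standard error 0.94, adjusted p = 0.452 in edgeR), and DESeq2 called it, as it did *Fgf21*, beside 2.33% of all its genes. With No316 and No368 summed it called neither (adjusted p = 0.265 and 0.0598), and called *Kl*, the co-receptor gene for Fgf23, which was at 5.02 CPM in No364 and at 0 in the other 5 tumors.

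*Axl* (ENSMUSG00000002602, chromosome 7, 25757273 to 25788705, minus strand) encodes a receptor of the TAM family. Gas6 and Pros1 are ligands of that family, though not each of every receptor in it, and bridge their receptors to exposed phosphatidylserine. *Axl* was at 39.5, 81.2 and 84.5 CPM (No244, No316, No368) against 27.6, 169.3 and 48.0 CPM (No203, No279, No364). The genotypes overlapped, with No279 highest and No203 lowest. The log2 fold change was 0.26 (standard error 0.72, 95% interval -1.46 to 1.97, adjusted p = 0.908 in edgeR), and it was -0.86 without No279 and -0.03 without No244. In the rest of the TAM axis, 0 of 4 genes were called by edgeR, and the median log2 fold change was -0.41. *Mertk*, the TAM receptor of macrophages, was at 38.9, 54.5 and 59.6 CPM in *Cd44*+/+ and at 20.9, 9.94 and 13.0 CPM in *Cd44*-/- tumors, with a log2 fold change of -1.81 (standard error 0.40, adjusted p = 0.452 in edgeR, 0.0221 in DESeq2 and 0.297 in DESeq2 with No316 and No368 summed). *Gas6* was also below in all *Cd44*-/- tumors, but by little, at 270.5, 242.5 and 245.7 against 238.1, 201.8 and 177.5 CPM (log2 fold change -0.30, standard error 0.37). *Pros1*, which the liver secretes, was the highest of the list at 0.77 (standard error 0.77), with 267.7 CPM in No364 and 43.0 to 84.7 CPM elsewhere.

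Downstream of the receptors, 0 of 12 adaptor genes and 0 of 12 feedback genes were called by edgeR, with median log2 fold changes of 0.13 and 0.14. Among the genes listed as adaptors, *Plcg1*, which encodes the enzyme phospholipase C gamma 1, was lowest at -1.55 (standard error 0.35, adjusted p = 0.452 in edgeR). It was at 151.7, 148.8 and 146.5 CPM in *Cd44*+/+ and at 49.1, 65.6 and 38.4 CPM in *Cd44*-/- tumors, and DESeq2 called it (adjusted p = 0.0121, or 0.278 with No316 and No368 summed). The highest was *Sos1*, an exchange factor for Ras, at 1.47 (standard error 0.80), which was 0.11 without No279, where it reached 200.5 CPM. The feedback genes answer to MAPK signalling, and their extremes were *Dusp4*, a MAPK phosphatase, at 2.63 (standard error 1.16) and *Etv5*, a transcription factor, at -0.95 (standard error 0.63). *Dusp4* was at 37.5 CPM in No279 and between 1.53 and 4.61 CPM elsewhere, and its log2 fold change was 0.45 without that tumor. In 7 of the 12 adaptor genes and 7 of the 12 feedback genes No279 was the highest tumor, as it was for 21.5% of all genes tested.

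Levels of different genes were compared per kilobase of annotated exon, over 5 samples with No316 and No368 as 1. *Pdgfrb* led the members with a mean of 33.7 ± 18.5 CPM per kilobase (SD, n = 5). It was followed in order of the mean by *Fgfr1* (22.3), *Pdgfra* (17.4), *Axl* (14.6), *Fgfr2* (7.68), *Met* (4.99), *Fgfr3* (4.18), *Kdr* (4.16), *Hgf* (2.00) and *Igf1r* (0.26 CPM per kilobase). For all 9 pairs of neighbours the difference of the means was smaller than the larger SD. *Pdgfrb* was above *Fgfr1* in 6 of 6 tumors, and in the other pairs the gene with the higher mean was higher in 2 to 5 of 6. *Pdgfrb* held the first rank in all tumors but No364, where *Met* was first with 11.5 CPM per kilobase, *Axl* second with 9.54 and *Pdgfrb* next with 6.10. In the *Cd44*+/+ tumors and in No203 *Met* ranked 8 of 10, at 0.153 to 1.8 CPM per kilobase.

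Among all 58 receptor tyrosine kinases listed, 43 were tested, 0 were called by edgeR, and the median log2 fold change was 0.09. The 9 member receptors held 37.4%, 39.3% and 39.1% of the summed level per length (No244, No316, No368) against 30.1%, 48.5% and 19.8% (No203, No279, No364). The receptor with the highest mean level per length was no member but *Csf1r*, the CSF1 receptor of macrophages and osteoclasts, at 41.0 ± 16.9 CPM per kilobase (SD, n = 5). It led in No244, No203 and No279, *Pdgfrb* in No316 and No368, and *Egfr*, the EGF receptor, in No364 with 48.6 CPM per kilobase against 0.571 to 2.93 elsewhere. In all, 31 receptors outside the members had a mean level per length above that of *Igf1r*, led after *Csf1r* by the collagen receptor *Ddr2* (17.7), the Wnt receptor *Ryk* (14.3), *Mst1r* (12.6), the ephrin receptor *Epha2* (12.3) and *Egfr* (10.8 CPM per kilobase). *Mst1r*, the closest relative of *Met*, did not follow it, with 115.6, 3.09 and 5.0 CPM in *Cd44*+/+ and 88.4, 98.4 and 7.90 CPM in *Cd44*-/- tumors. The highest log2 fold change was that of *Erbb3*, 6.13 (standard error 2.17), which was 0.77 without No364, and the lowest that of *Epha3*, -4.08 (standard error 1.28), with 161.7 CPM in both No316 and No368 against 1.62 to 10.8 CPM in the other tumors. DESeq2 called 5 of the receptors, *Egfr*, *Epha1*, *Epha3*, *Ephb2* and *Mertk*, and no member, beside 2.33% of all its genes. With No316 and No368 summed it called 0 of them, beside 0.797% of genes.

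The genes whose log2 CPM followed each member most closely over the 6 tumors are given as a description, with Pearson's r over 6 points of which No316 and No368 were nearly alike. Between 62 genes (for *Igf1r*) and 266 genes (for *Kdr*) of the 16839 had an r above 0.95 with a member. For *Met* the closest were the calpain gene *Capn1* (0.997), the dynactin gene *Dctn3* (0.997) and *Eml2* (0.993). For *Hgf* they were *Gm4875*, *Crabp1* and *Arl3*, all at 0.996 to 0.997, and for *Kdr* they were *Arrdc1*, the GABA receptor gene *Gabbr1* and *Epha2*, at 0.997 to 0.998. *Pdgfra* went with the p53 regulator *Mdm2* (0.996), the collagen gene *Col6a3* (0.994) and *Ank* (0.993). *Pdgfrb* went with the filamin gene *Flna* (0.997), *Lrfn4* (0.995) and *Dok1* (0.993). *Igf1r* went with *Fmnl2*, *2510039O18Rik* and *Spsb1*, at 0.993 to 0.994. Genes close to *Fgfr1* included *Ak5* (0.998) and *Cbfb*, the partner of Runx factors (0.997). *Fgfr2* went with *Crip1*, *Gm15526* and *Kctd1*, at 0.994 to 0.995, and *Fgfr3* with *Arhgap12*, *Tubgcp3* and *0610030E20Rik*, at 0.992 to 0.995. *Axl* went with *Cops4* (0.997), the non-muscle myosin gene *Myh9* (0.995) and *Fmn1* (0.995).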

How the data were processed

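RNA of 6 mouse osteosarcomas was measured, 3 *Cd44*+/+ and 3 *Cd44*-/-, grouped by the labels. Per the submitters' processing notes and the study's methods, TruSeq stranded mRNA libraries were read from a single end over 51 cycles with lanes merged in the counts, reads were extracted with bcl2fastq 1.8.4, aligned to GRCm38 (Ensembl release 84) with HISAT2 2.0.2 and summarized with featureCounts of Subread 2.0.0. The authors deposited the raw counts per Ensembl gene, without normalization. The strand setting and the handling of reads that match several genes are not given in the sources used here, so counts of overlapping genes are uncertain. A count table keeps no isoforms.

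Symbols (37607 of 39179 identifiers matched), positions and exon lengths were taken from GENCODE M21 (GRCm38), a later release than that used for counting, and promoters from RefSeq (GRCm38.p6). The genotypes' difference was tested in R 4.3.3 by edgeR 4.0.16 (TMM, filterByExpr, quasi-likelihood F test, genotype as the single factor, Benjamini-Hochberg adjusted p under 0.05 over all genes tested) on the 6 libraries as labelled. The biological coefficient of variation was 0.708. Standard errors were taken as the log2 fold change over the square root of F, and the interval used the t distribution with the gene's total degrees of freedom. CPM were scaled to the TMM effective library size, and 0.5 was added before log2 for correlations. The tests were checked on simulated counts. Total counts of 18076388 to 26954142 put 3 counts at 0.0990 to 0.252 CPM, for counting error only. Pairs of tumors were set against the 95% binomial range around their median ratio, over genes whose 2 counts summed to 20 or more, and No316 and No368 then counted as 1 sample in means and SDs.

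Alternatives were 2 other scalings (DESeq2 size factors, plain library size), TMM without mitochondrial genes, 2 other low-count filters (total count over 1, 10 or more counts in each tumor), 2 other tests (DESeq2 1.42.0 by its Wald test, voom in limma 3.58.1), No316 and No368 summed, and leaving out each tumor. DESeq2 with that pair summed was added after seeing the data. The members and gene lists were chosen with earlier results of these data known. Named were all members and *Cd44*, the ligands Pdgfa to Pdgfd, Igf1, Igf2, Vegfa, Fgf2, Fgf18, Gas6 and Pros1, list genes called by edgeR (0), the lowest and highest log2 fold change of each list, receptors with a level per length above the lowest member, and the 3 genes most correlated with each member, of which 1 is not reported here. Genes named for another reason are marked so or were called by DESeq2. Protein sequences were not used here.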

Additional observations from a re-analysis of the deposited data

How the results depend on the processing

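No paired analysis was possible because the labels give each tumor its own mouse number and the genotypes share none. No member was called under any of the 15 alternatives, of which 12 were edgeR fits, 1 was limma-voom and 2 were the Wald test of DESeq2, on the 6 libraries and with No316 and No368 summed. The last was chosen after seeing the data, and DESeq2 was not run with a tumor left out. *Met*, *Hgf*, *Kdr*, *Igf1r*, *Fgfr1*, *Fgfr2*, *Fgfr3* and *Cd44* kept the sign of their log2 fold change in all that could be run, from 3.02 to 5.21 for *Met*, -1.62 to -0.96 for *Kdr* and 2.52 to 5.64 for *Hgf*, which the filter on 10 counts in every tumor removed. *Pdgfra* turned to -0.26 with limma-voom and ran from -1.19 (without No279) to 0.99 with a tumor left out. *Axl* turned to -0.10 with limma-voom and ran from -0.86 (without No279) to 0.63, with -0.03 without No244. *Pdgfrb* ran from -1.28 to 0.027 (without No364). The cause was not tested. The Wald test of DESeq2 called 419 genes where edgeR called 0, *Cd44* among them (log2 fold change -2.70, adjusted p = 0.0145), and 1 of the PDGF ligands, 3 of the IGF axis, 2 of the FGF axis, 1 of the TAM axis, 1 adaptor and 5 receptor tyrosine kinases. With No316 and No368 summed it called 146 genes, 1 of the IGF axis and 1 of the FGF axis, and of the other lists and *Cd44* none (adjusted p = 0.178 for *Cd44*). With No316 and No368 summed in edgeR, 761 genes in place of 1810 had an unadjusted p under 0.05, with 2 members among them, *Met* and *Kdr*. It was 1197 genes with library size alone, and 763 without No316, 784 without No368 and 3085 without No203. Members at this level numbered 1 without No316 and 1 without No368, and 2 to 4 in the other fits. Of the genes at this level 59.9% were higher in *Cd44*-/- tumors, and 38.4% with limma-voom. Members whose genotypes were apart numbered 1 with library size alone (*Met*) and 3 to 6 with a tumor left out, 5 without No203 and 6 without No279, where fewer samples make separation more frequent (37.8% and 29.3% of genes tested, with 39.7% without No244 and 28.7% without No364, against 19.1% in all 6 tumors and 12.5% with library size alone). The remaining 365 of 398 comparisons kept their direction and their side of the threshold, counts within 1.5 times. At 0 and 2 reads, the level of *Hgf* in No244 and No203 is known only as under the 3 counts taken as detectable.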
